A study of Mus musculus with 12 samples.

Results

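The transcript levels of 10 genes were followed in microglia, the macrophages that reside in brain tissue. They encode the PGC-1 coactivators (Ppargc1a, Ppargc1b, Pprc1), nuclear receptors that these coactivators bind (Esrra, Ppard, Pparg), other transcription factors of nuclear-encoded mitochondrial genes (Nrf1, Gabpa, Yy1), and the deacetylase Sirt1. They were chosen by symbol, with all rows of a symbol summed, and make up 10 of the 21125 genes of the table. Each of the 10 had rows, and 8 reached the level needed for testing, which was at least 1 FPKM in at least 3 profiles. Ppargc1b and Pparg did not reach it.

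The cells were primary microglia from mouse midbrain, sorted by flow cytometry, in 4 groups that the labels number as 3 samples each. WT samples carried the genotype Ppargc1a FF and KO samples the genotype Ppargc1a FF CreER. Samples of each genotype came from animals given PBS or MPTP, a toxin of dopaminergic neurons. Every sample, WT included, was taken 6 weeks post Tamoxifen. CreER itself was therefore also absent from the WT samples. The promoter that drives CreER, the deleted part of Ppargc1a and the animals' ages are absent from the sources used here. The labels do not tie samples to animals. The p-values therefore cover the spread between these profiles alone, and that spread may be technical. Values were taken as FPKM, a level scaled by transcript length and by library size, which allows levels of different genes to be compared. Read depth is unknown.

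PGC-1 coactivators do not bind DNA themselves. They are recruited by DNA-bound factors such as ERRα, the PPARs, NRF1, the GABP complex and YY1, and bring chromatin-modifying and Mediator complexes to genes of respiration, fatty acid oxidation and mitochondrial replication. Their activity is set by transcription of Ppargc1a, for example through CREB, and by modification of the protein, including deacetylation by SIRT1. In macrophages, PPARs, ERRα and PGC-1 are known for links between oxidative metabolism and inflammatory state.

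The table's 12 columns held 6 separate profiles. For WT these were PBS 1, PBS 2 and MPTP 1, and for KO they were PBS 1, PBS 2 and MPTP 2. The other columns were arithmetic functions of these. In each group, column 3 followed 0.1 + 0.99 × the mean of columns 1 and 2. WT MPTP 2 was 1.02 × WT MPTP 1, and KO MPTP 1 was 1.02 × KO PBS 2. Only 49 rows in 42 genes departed from these relations beyond rounding, and 4 of the 10 genes described here were among those 42: Ppargc1a, Pparg, Ppard and Nrf1. The profile of KO PBS 2 thus stood under both treatments, and the fits reported used it for genotype only. Where profiles are called PBS-labelled below, it is counted under its PBS label. The macrophage and microglia genes Csf1r (117 FPKM) and Trem2 (127 FPKM) were high, whereas Cx3cr1 (0.052 FPKM), P2ry12 (0.192 FPKM) and Sall1 (0 FPKM), which define resting microglia, were at or near 0. Of the 14 microglia markers, 9 had a mean of at least 1 FPKM.

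Ppargc1a, which encodes PGC-1α and is the targeted gene, separated the genotypes. Its level was 5.70 FPKM in WT PBS 1, 6.21 FPKM in WT PBS 2 and 2.72 FPKM in WT MPTP 1. In the KO profiles it was 0.33 FPKM in KO PBS 1, 0.12 FPKM in KO PBS 2 and 0.42 FPKM in KO MPTP 2. Every KO profile lay below every WT profile, and the WT MPTP profile stood between the WT PBS pair and the KO profiles. The WT mean was 4.88 ± 1.89 FPKM and the KO mean 0.29 ± 0.154 FPKM (SD, n = 3 each), so the KO level was 5.95% of the WT level. An exact permutation test (two-sided) of this difference gave p = 0.1, the smallest that 3 profiles against 3 allow. In the 6 computed columns Ppargc1a was listed at 5.60 (WT PBS 3), 2.83 (WT MPTP 2), 2.95 (WT MPTP 3), 0.42 (KO PBS 3), 0.22 (KO MPTP 1) and 0.51 FPKM (KO MPTP 3). These columns had the order of the separate profiles, but they carry no error of their own.

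The promoters of 5 of the genes are shown because the first 3 genes varied most between the profiles and the last 2 hold a match to the NRF1 motif while their levels varied little. Each sequence is the 250 bases upstream of a RefSeq transcription start on GRCm38.p6, printed 5′ to 3′ on the gene's strand. The deposited table names mm9, so these positions come from the reference alone. They are chr5:51567726-51567975 on the minus strand for Ppargc1a, chr17:28232504-28232753 on the plus strand for Ppard, chr6:30047738-30047987 on the plus strand for Nrf1 (window 1 of 2), chr16:84834874-84835123 on the plus strand for Gabpa and chr19:6921809-6922058 on the minus strand for Esrra. Capitals mark matches to the motifs listed in the next paragraph.
Ppargc1a: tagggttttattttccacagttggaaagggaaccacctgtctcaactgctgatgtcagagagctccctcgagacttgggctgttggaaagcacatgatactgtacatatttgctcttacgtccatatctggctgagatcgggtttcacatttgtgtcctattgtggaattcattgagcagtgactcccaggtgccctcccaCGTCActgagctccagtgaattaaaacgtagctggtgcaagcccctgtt
Ppard: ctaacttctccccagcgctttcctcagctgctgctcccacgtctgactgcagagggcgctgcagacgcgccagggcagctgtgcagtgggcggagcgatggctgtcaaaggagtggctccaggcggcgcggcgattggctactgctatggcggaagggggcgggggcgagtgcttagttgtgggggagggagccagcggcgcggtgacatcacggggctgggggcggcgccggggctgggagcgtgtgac
Nrf1: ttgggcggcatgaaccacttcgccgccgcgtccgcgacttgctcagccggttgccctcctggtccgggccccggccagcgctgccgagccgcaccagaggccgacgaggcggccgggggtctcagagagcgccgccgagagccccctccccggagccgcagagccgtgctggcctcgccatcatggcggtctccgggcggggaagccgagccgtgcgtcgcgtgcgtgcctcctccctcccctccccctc
Gabpa: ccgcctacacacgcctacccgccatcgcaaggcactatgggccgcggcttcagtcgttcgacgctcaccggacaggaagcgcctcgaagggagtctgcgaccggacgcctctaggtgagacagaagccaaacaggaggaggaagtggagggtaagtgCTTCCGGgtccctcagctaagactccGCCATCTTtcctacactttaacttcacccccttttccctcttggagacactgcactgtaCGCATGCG
Esrra: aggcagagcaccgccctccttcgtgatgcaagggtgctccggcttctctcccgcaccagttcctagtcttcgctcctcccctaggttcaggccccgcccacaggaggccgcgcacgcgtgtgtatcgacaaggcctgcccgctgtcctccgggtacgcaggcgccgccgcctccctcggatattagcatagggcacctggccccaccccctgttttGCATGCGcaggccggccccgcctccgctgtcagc

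Motifs were searched on both strands as exact letters: NRF1 (GCATGCG), GABP (CCGGAAG), YY1 (AAGATGGC), ERR (TCAAGGTCA), the core of nuclear receptor sites (AGGTCA, whose letters are contained in the ERR motif) and the core of CREB sites (TGACG). Of 32851 RefSeq windows of this length, 3.02% held the NRF1 letters, 6.91% GABP, 1.57% YY1, 0.387% ERR, 14.0% the nuclear receptor core and 17.8% the CREB core. Ppargc1a held 1 match, the CREB core on the opposite strand from 49 to 45 bases upstream of its start. Gabpa held 4 matches: GABP from 93 to 87 bases upstream, YY1 from 67 to 60 bases upstream, and a pair of overlapping NRF1 matches, 1 on each strand, in the last 8 bases. Esrra held the NRF1 motif from 34 to 28 bases upstream. Ppard and Nrf1 held none of these letters, nor did Yy1. Sequence composition differed as well, with 48.0% G and C for Ppargc1a, 69.6% for Ppard and 76.0% for Nrf1, against a median of 52.4% over all windows. Of the genes whose sequences are not printed, Pprc1 and Pparg held the nuclear receptor core and Sirt1 the CREB core. The promoter of Ppargc1b was not searched. Matches of letters are a description of these windows and were not tested for binding.

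The 10 genes spanned a wide range of mean levels over the 6 separate profiles. Yy1, a zinc finger factor that recruits PGC-1α to mitochondrial genes, was highest at 33.8 ± 1.34 FPKM (SD, n = 6). Ppard, the PPARδ receptor, followed at 24.7 ± 4.81 FPKM, and Esrra, the orphan receptor ERRα, at 18.9 ± 1.13 FPKM. Gabpa, the DNA-binding subunit of GABP, was at 13.1 ± 0.605 FPKM and Pprc1, the coactivator PRC, at 10.7 ± 0.794 FPKM. Pprc1 was therefore the most abundant of the 3 coactivator transcripts in every profile. Nrf1, nuclear respiratory factor 1, was at 9.13 ± 1.94 FPKM and Sirt1 at 6.46 ± 0.408 FPKM. Ppargc1a had a mean of 2.58 ± 2.78 FPKM across both genotypes. Pparg, the PPARγ receptor, at 0.423 ± 0.0826 FPKM, and Ppargc1b, the coactivator PGC-1β, at 0.163 ± 0.0942 FPKM, were the lowest. Among neighbours in this order, the ranges over profiles did not overlap for Yy1 above Ppard, Esrra above Gabpa and Gabpa above Pprc1. They overlapped for the other 6 neighbouring pairs. Esrra exceeded Ppard in 2 of the 6 profiles, the MPTP profiles, and Ppard exceeded Esrra in the other 4.

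**Figure D1:**
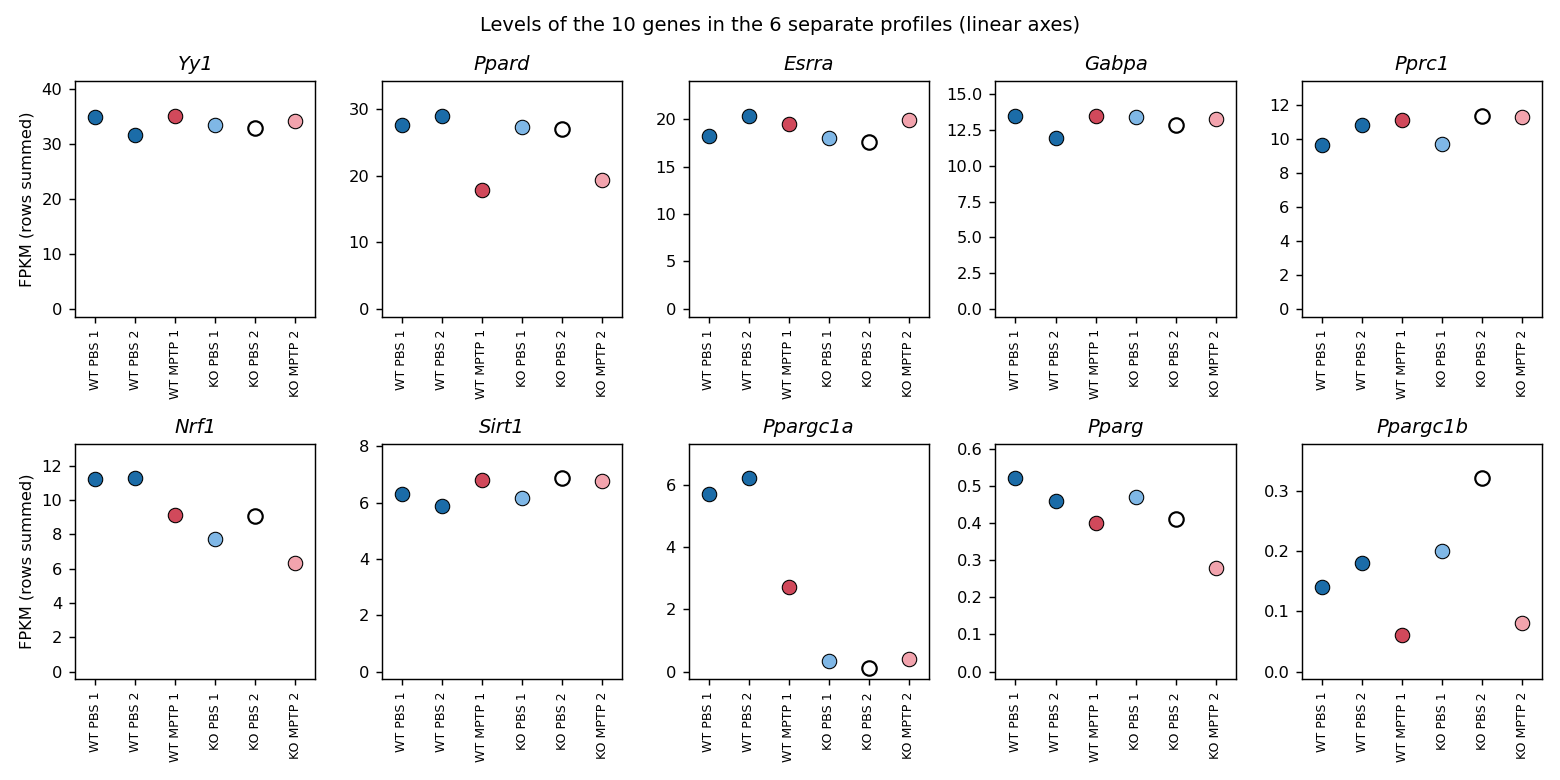
Level of each of the 10 genes (FPKM, rows summed, linear axis with its own scale per gene) in the 6 separate profiles; each point is 1 profile, and the open circle is KO PBS 2, whose profile also stands under KO MPTP 1. Ppargc1a is below 0.5 FPKM in the KO profiles, Ppard is lower in both MPTP profiles, and Yy1, Esrra, Gabpa, Pprc1 and Sirt1 vary little.

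The genes differed in how much they varied. Variation was taken as the span, the highest minus the lowest log2(FPKM + 1) over the 6 profiles. Ppargc1a spanned 2.69, Nrf1 0.74 and Ppard 0.67, at percentiles 99.972, 99.4 and 99.2 of the 10634 genes tested. Pprc1 spanned 0.22, Esrra 0.20, Sirt1 0.19, Gabpa 0.16 and Yy1 0.15, with percentiles between 26.8 and 65.3. The median span of all genes tested was 0.19, so these 5 genes varied about as much as a typical gene. The WT PBS profiles, which share all labels, lay 0.07 apart at the median gene and 0.24 apart at the 95th percentile. Their distance was 0.14 for Yy1 and 0.16 for Gabpa, which made up 0.14 of the 0.15 and all of the 0.16 that these genes spanned.

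Among the coactivators, Pprc1 was at 9.63 FPKM in WT PBS 1 and at 11.4 FPKM in KO PBS 2, its lowest and highest profiles, and its WT and KO levels overlapped. Ppargc1b was at 0.14 FPKM in WT PBS 1, 0.18 in WT PBS 2, 0.06 in WT MPTP 1, 0.20 in KO PBS 1, 0.32 in KO PBS 2 and 0.08 in KO MPTP 2. Both MPTP profiles were below the 4 PBS-labelled ones, at levels where the table's 2 decimals leave few steps. The highest PBS-labelled value, 0.32 FPKM in KO PBS 2, belongs to the profile that also stands under KO MPTP 1. Under that label the order does not hold. The share of all genes tested with such an order was not computed. Without the filter on low values, Ppargc1b differed by -0.13 ± 0.03 (log2, SE) for MPTP in WT, with a Benjamini-Hochberg adjusted p of 0.65 in limma. Its difference between KO and WT over 6 profiles was 0.09 ± 0.08, with an adjusted p of 0.939. No gene passed without the filter in any comparison, and Ppargc1a itself had a limma adjusted p of 0.6 over 6 profiles. That fit could therefore not decide whether Ppargc1b differed, and nothing is concluded for it. PRC transcript levels, which were tested with the filter, were not shown to differ where PGC-1α was low.

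Among the nuclear receptors, Ppard was lower in the MPTP profiles. It was at 27.6 and 29.0 FPKM in WT PBS 1 and 2, and at 17.8 FPKM in WT MPTP 1. In KO it was at 27.3 FPKM in KO PBS 1, 27.0 FPKM in KO PBS 2 and 19.3 FPKM in KO MPTP 2. The 4 PBS-labelled profiles did not overlap with the 2 MPTP profiles, and WT and KO profiles overlapped fully. The share of all genes tested that separate by treatment in this way was not computed, so nothing is read from the separation alone. The lowest of the PBS-labelled values belonged to the profile that also stands under KO MPTP 1. Pparg showed a like order at far lower levels, from 0.41 to 0.52 FPKM under PBS labels and at 0.40 and 0.28 FPKM in the MPTP profiles. The 0.41 FPKM was again that of KO PBS 2. The Pparg difference for MPTP in WT was -0.09 ± 0.04 in the fit without the filter, in which no gene passed. Esrra was between 17.6 and 20.4 FPKM with no separation by genotype or treatment.

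Nrf1 was the only member besides Ppargc1a whose WT and KO levels did not overlap. It was at 11.2 FPKM in WT PBS 1, 11.3 FPKM in WT PBS 2 and 9.13 FPKM in WT MPTP 1. The KO values were 7.76 FPKM in KO PBS 1, 9.07 FPKM in KO PBS 2 and 6.32 FPKM in KO MPTP 2. The gap between the lowest WT value (9.13 FPKM) and the highest KO value (9.07 FPKM) was narrow. The WT mean was 10.5 ± 1.22 FPKM and the KO mean 7.72 ± 1.38 FPKM (SD, n = 3 each), with p = 0.1 in the exact permutation test (two-sided), the smallest possible. Among all genes tested, 7.19% had every KO profile below every WT profile, and among the 8 tested members these were Ppargc1a and Nrf1. Gabpa was between 11.9 and 13.5 FPKM, Yy1 between 31.6 and 35.2 FPKM and Sirt1 between 5.88 and 6.86 FPKM, each with WT and KO levels that overlapped.

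The rows behind each gene showed where these differences lay. A row name is a symbol with a number, and what a row stands for (a transcript, for example) is not given in the sources used here. Ppargc1a had 2 rows and Ppargc1a_1 held 99.9% of its level. Yy1 was likewise carried by 1 row, Yy1_2, with 99.3%. Of the 6 Ppard rows, Ppard_5 held 92.0%, with 25.9 and 27.3 FPKM in WT PBS, 16.5 in WT MPTP 1, 24.6 and 25.0 in the KO PBS pair, and 16.9 in KO MPTP 2. The other 5 Ppard rows together stayed between 1.33 and 2.72 FPKM, so the lower MPTP level was a difference in Ppard_5. Nrf1 was spread over 18 rows, of which Nrf1_4 held 50.6%. Nrf1_4 was at 6.68 and 6.78 FPKM in WT PBS, 4.48 in WT MPTP 1, 4.05 and 4.06 in the KO PBS pair, and 1.69 in KO MPTP 2. Its share of Nrf1 ranged from 26.7% to 60.2%. The other 17 Nrf1 rows summed to 4.56, 4.48, 4.65, 3.71, 5.01 and 4.63 FPKM in the same order, with WT and KO profiles that overlapped. The separation of Nrf1 by genotype was thus present in Nrf1_4 and not in the sum of its other rows.

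The genes of small span had other make-ups. Gabpa was held by Gabpa_3 (62.5%) and Gabpa_2 (34.8%), and Esrra by Esrra_3 (84.5%). Pprc1 had 11 rows, with Pprc1_1 at 43.4% and Pprc1_11 at 35.3%, and Sirt1 had 7 rows with Sirt1_3 at 62.2%. Sirt1_6 was at 1.66 FPKM in WT PBS 1 and 0.36 FPKM in WT PBS 2, a difference inside 1 group that the sum over rows did not show. Pparg_4 and Pparg_5 held 42.1% and 38.2% of a sum below 1 FPKM.

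**Figure D2:**
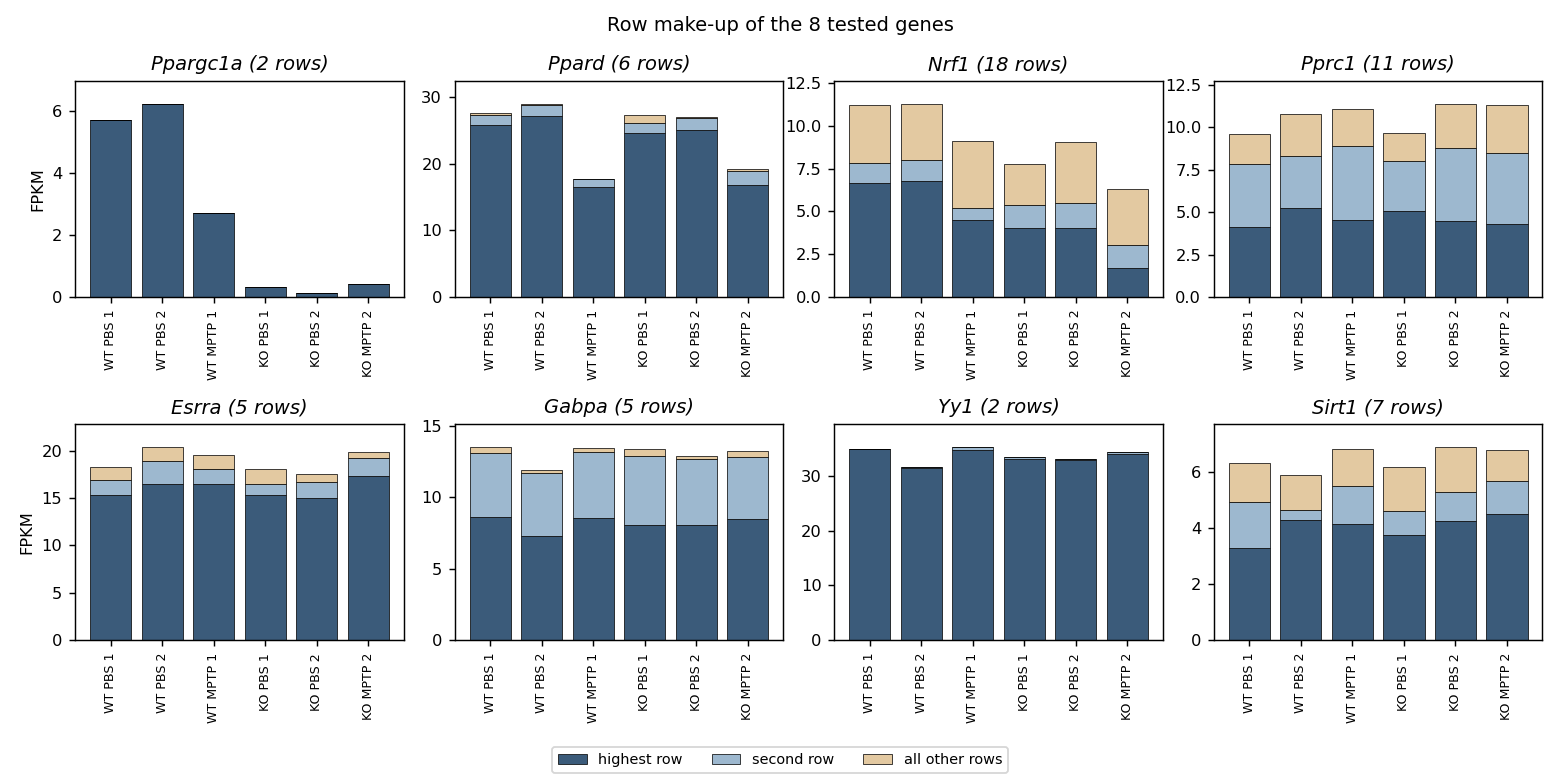
Level of each tested gene (FPKM, linear axis from 0) split into its highest row, its second row and all other rows, 1 stacked bar per separate profile. The differences in Ppard and Nrf1 lie in the highest row (Ppard_5 and Nrf1_4), while the other rows of Nrf1 stay between 3.71 and 5.01 FPKM in sum.

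The rows that carried these differences were also rows that departed from the arithmetic relations between columns. In KO MPTP 1, Ppard_5 was deposited as 15.3 FPKM, where 1.02 × KO PBS 2 gives 25.5 FPKM. Nrf1_4 was deposited there as 2.10 FPKM, where the relation gives 4.14 FPKM. Both deposited values lay near KO MPTP 2 (16.9 and 1.69 FPKM) rather than near KO PBS 2. Ppargc1a_1 was listed at 0.22 FPKM in KO MPTP 1 against 0.122 FPKM from the relation, and at 2.83 FPKM in WT MPTP 2 against 2.77 FPKM. In WT PBS 3 it was at 5.50 FPKM against 6.00 FPKM, the only row of 67355 off the relation in that column. Nrf1_4 in WT MPTP 2 (4.51 against 4.57 FPKM), Nrf1_15 in WT MPTP 2 (0.91 against 0.714 FPKM) and Pparg_4 in KO MPTP 1 (0.01 against 0.133 FPKM) were the remaining departures. Of the 8 tested members, the 3 with a row off the relations were the 3 with a difference at an unadjusted p under 0.05 in any comparison, and the 5 others had 0 such differences. How the values of these rows arose is not given in the sources used here. With the 42 genes left out, 0 members were called in limma, since each called member is among them, and 0 of the other 5 tested members had an unadjusted p under 0.05 in the fit of all genes.

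**Figure D3:**
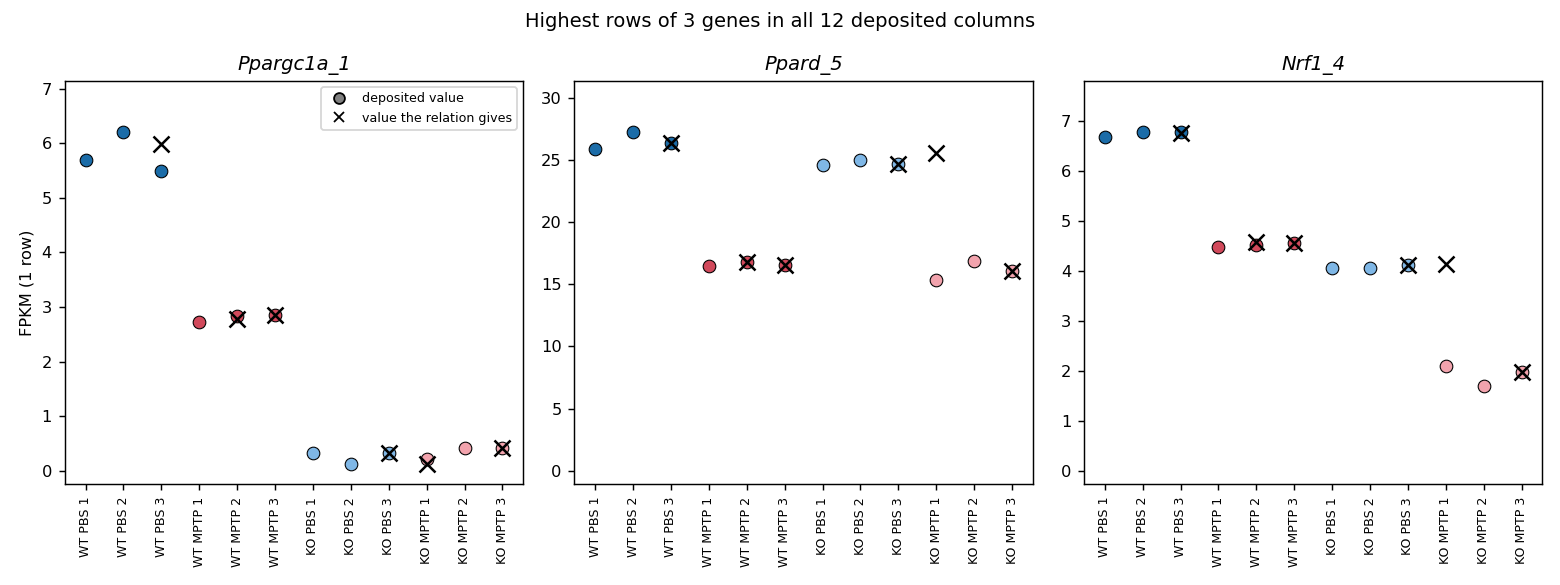
Deposited value (FPKM, circles, linear axis) of Ppargc1a_1, Ppard_5 and Nrf1_4 in all 12 columns, with the value that the arithmetic relation gives for each computed column (crosses). Circle and cross differ most for Ppard_5 and Nrf1_4 in KO MPTP 1 and for Ppargc1a_1 in WT PBS 3.

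MPTP in WT was compared to ask how the coactivator network of WT microglia differed after the toxin. Ppargc1a and Ppard fell, and the other 6 tested members did not pass the test. Ppargc1a fell by 0.90 on the log2(FPKM + 1) scale (SE 0.10, limma adjusted p = 0.00472), and in FPKM WT MPTP 1 was at 45.7% of the WT PBS mean. Ppard fell by 0.64 (SE 0.08, adjusted p = 0.0101), to 63.0% of the WT PBS mean. Nrf1 differed by -0.27 ± 0.09, with an unadjusted p of 0.0122 in limma and an adjusted p of 1. Pprc1, Esrra, Gabpa, Yy1 and Sirt1 differed by 0.02 to 0.14, with 95% intervals that reached from -0.18 to 0.35. The called members were 2 of 8, against 0.254% of all genes tested, and 3 of 8 had an unadjusted p under 0.05, against 2.65%. Both called members had a row off the column relations. Genes with such a row were called in a far larger share than all genes tested, so nothing about the network is read from these counts. The members' median was 0.05 and that of all genes 0.04, and 5 of 8 members (62.5%) lay above 0 against 73.0% of all genes. The comparison rested on 1 MPTP profile, and with WT PBS 1 or WT PBS 2 left out (and KO PBS 2 taken as KO PBS) neither call passed, with adjusted p of 0.165 and 0.169 for Ppargc1a and 0.0595 and 0.0514 for Ppard. The calls of both genes were also lost when single rows took the place of sums (adjusted p = 0.153 and 0.155), and with no filter on low values 0 members passed in any comparison.

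The summed level of granulocyte markers was higher in the MPTP profiles than in the PBS profiles without KO PBS 2. Its part in the members' differences was not tested. The 4 of 5 granulocyte markers with rows summed to 4.13 to 4.90 FPKM in the PBS profiles (without KO PBS 2) and to 6.25 and 6.45 FPKM in the MPTP profiles. S100a8 made up most of this sum (3.68 to 5.76 FPKM), while the defining markers Ly6g and Mpo were at most 0.01 and 0.02 FPKM. In these bulk samples, fewer cells of a type and less RNA per cell cannot be told apart.

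MPTP in KO asked the same of microglia with little Ppargc1a. Each arm was 1 profile, KO MPTP 2 and KO PBS 1, and the spread came from the WT PBS pair. None of the 8 members passed the test, against 0.292% of all genes tested, and 2 had an unadjusted p under 0.05 in limma, against 9.23%. Ppard differed by -0.48 ± 0.09 (limma adjusted p = 0.0859). Nrf1 differed by -0.26 ± 0.10 with an adjusted p of 0.484. Over the alternatives the Nrf1 value ran from -0.91 (single rows) to -0.03 (KO PBS 2 counted as KO MPTP), and it was -0.46 with KO PBS 2 in place of KO PBS 1. The other 6 members differed by -0.01 to 0.20, with intervals from -0.26 to 0.45. Ppargc1a was among these, at 0.09 ± 0.12. The members' median was 0.06 against 0.09 for all genes, and 5 of 8 lay above 0 against 86.5% of all genes. The Ppard value depended on how the doubly labelled profile was used: it was -0.47 (adjusted p = 0.0269) with that profile counted as KO PBS, and -0.25 (adjusted p = 0.886) with it counted as KO MPTP at its KO PBS 2 values. Ppard passed under 7 alternatives, 3 of which use computed columns, and did not pass under the other 9.

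KO against WT under PBS asked how the network differed at rest, and Ppargc1a alone passed. It fell by 2.39 (SE 0.10, limma adjusted p = 3.95e-06), and KO PBS 1 was at 5.54% of the WT PBS mean in FPKM. Nrf1 differed by -0.48 ± 0.09 (limma adjusted p = 0.099), with KO PBS 1 at 69.0% of the WT PBS mean. The other 6 members differed by -0.09 to 0.07, with intervals from -0.29 to 0.29. The called member was 1 of 8, against 0.226% of all genes, and 2 of 8 had an unadjusted p under 0.05, against 4.42%. Nothing is read from these counts, since Ppargc1a, the targeted gene, passed the low-value filter only through the WT profiles, where it is high. The members' median was -0.06, as was that of all genes, and 3 of 8 lay above 0 against 22.1% of all genes. The KO arm was 1 profile, and with KO PBS 2 in place of KO PBS 1 Nrf1 was at -0.28 (adjusted p = 0.72). With KO PBS 1 and the filter raised to 5 FPKM it passed (adjusted p = 0.0213).

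KO against WT under MPTP set 1 profile against 1, KO MPTP 2 against WT MPTP 1, so its p-values borrow their spread from the WT PBS pair and were not checked by replicates of either arm. Ppargc1a fell by 1.39 (SE 0.12, limma adjusted p = 0.00148), and KO MPTP 2 was at 15.4% of WT MPTP 1 in FPKM. Nrf1 differed by -0.47 ± 0.10 (limma adjusted p = 0.277), with KO MPTP 2 at 69.2% of WT MPTP 1. Ppard differed by 0.11 ± 0.09, so that its lower level under MPTP had no counterpart between genotypes. The 6 members other than Ppargc1a and Nrf1 differed by -0.04 to 0.11, with intervals from -0.27 to 0.32. The called member was 1 of 8, against 0.103% of all genes, and 2 of 8 had an unadjusted p under 0.05, against 3.59%. The called member is again Ppargc1a, admitted by its WT level, so nothing is read from this count. The members' median and that of all genes were both -0.01, and 3 of 8 lay above 0 against 45.7% of all genes. Ppargc1a did not pass when WT PBS 1 or WT PBS 2 was left out and KO PBS 2 was added as KO PBS in the same fit (adjusted p = 0.0517 and 0.0515), or when rows were not summed (adjusted p = 0.112).

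Whether the MPTP difference itself differed between genotypes was tested as an interaction, and no member passed. For Ppargc1a the interaction was 1.00 ± 0.15 (limma adjusted p = 0.0781), from a difference of -0.90 in WT and 0.09 in KO, where its level was already below 0.5 FPKM. For Ppard it was 0.16 ± 0.12 with an interval from -0.12 to 0.43, and for Nrf1 0.02 ± 0.14 with an interval from -0.29 to 0.32. The MPTP differences of Ppard and Nrf1 were thus not shown to depend on genotype. An interaction as large as the MPTP differences lies inside the interval for Nrf1 but outside that for Ppard, which still allows smaller ones. Called members were 0 of 8 in limma, against 0.0752% of all genes, and 1 had an unadjusted p under 0.05, against 5.17%. The members' median was 0.05, as was that of all genes. With KO PBS 1 left out and KO PBS 2 in its place, the Ppargc1a interaction was 1.24 and passed (adjusted p = 0.0418).

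KO against WT over all 6 profiles pooled treatments within genotype and so could use KO PBS 2. Ppargc1a fell by 2.14 (SE 0.16, limma adjusted p = 1.85e-06). Nrf1 differed by -0.41 ± 0.10 and did not pass (limma adjusted p = 0.14). With the filter raised to 5 FPKM, which Ppargc1a does not pass, Nrf1 passed (limma adjusted p = 0.0105). The other 6 members differed by -0.06 to 0.05, with intervals from -0.29 to 0.29, the widest being that of Ppard, whose treatment difference enters its spread. The called member was 1 of 8, against 0.0376% of all genes, and 2 of 8 had an unadjusted p under 0.05, against 3.49%, with the same limit on Ppargc1a. The summed level of the 14 microglia markers was 553 to 569 FPKM in WT and 495 to 545 FPKM in KO without overlap, and its part in these differences was not tested. Itgam, a marker in this list, was at 86.48 to 94.97 FPKM in WT and 66.81 to 75.85 FPKM in KO. Because Itgam had a row off the column relations, the separation of the sum is not read as a trait of the whole list. With 1 profile left out at a time, Nrf1 ranged from -0.52 (without KO PBS 2, adjusted p = 0.00136) to -0.29 (without KO MPTP 2, adjusted p = 0.462), passed also without WT MPTP 1 (adjusted p = 0.0167), and was furthest from passing without WT PBS 2 (adjusted p = 0.99). Ppargc1a did not pass after median scaling (-2.10, adjusted p = 0.0605) or quantile normalization (-2.12, adjusted p = 0.158).

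**Figure D4:**
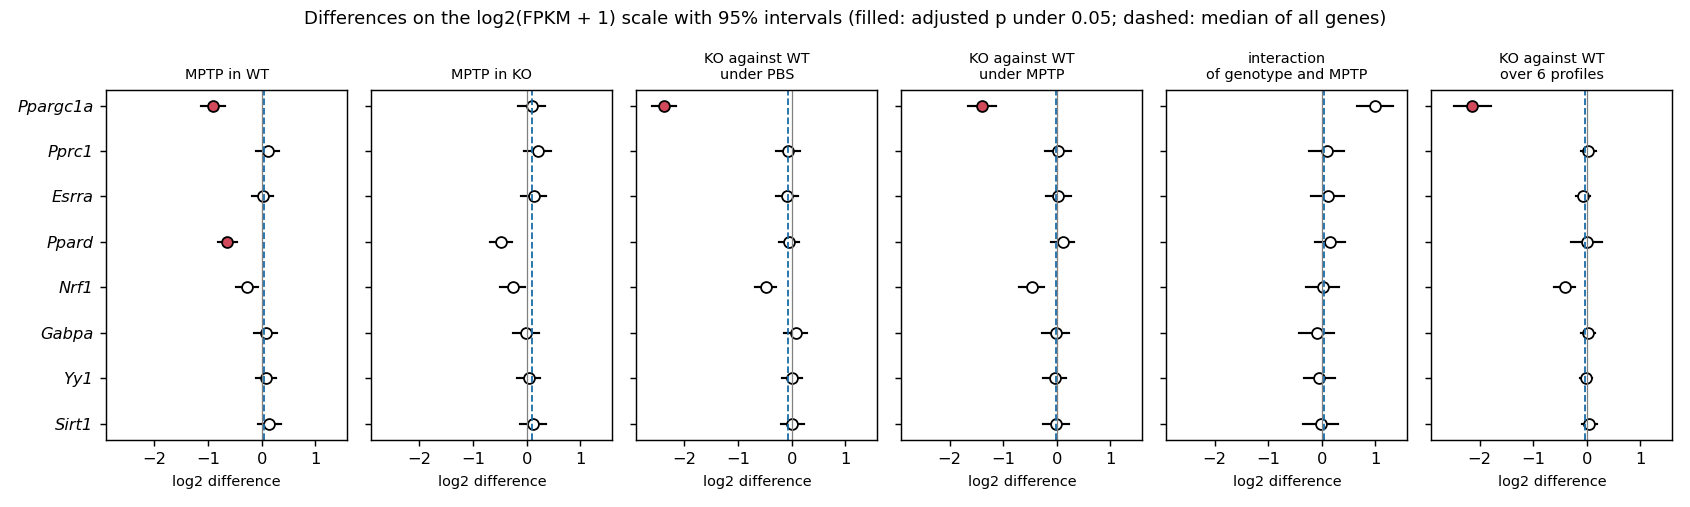
Difference of each tested member on the log2(FPKM + 1) scale in the 6 comparisons; points are limma estimates, bars their 95% intervals, filled points have a Benjamini-Hochberg adjusted p under 0.05, the grey line is 0 and the dashed line the median of all genes tested. Ppargc1a is called in 4 panels and Ppard in 1, and Nrf1 lies below 0 in every panel but the interaction without being called.

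Other genes of the pathway were read from lists chosen with earlier results of these data known, so their counts are a description. Of the partner nuclear receptors and FOXO factors, 8 were tested. Rxra, which encodes the RXRα partner of the PPARs, fell for MPTP in WT by 0.53 (SE 0.08, limma adjusted p = 0.0231). Its levels were 34.4 and 33.2 FPKM in WT PBS, 23.1 in WT MPTP 1, 31.9 and 30.6 in the KO PBS pair, and 23.6 in KO MPTP 2. As for Ppard, both MPTP profiles lay below every PBS-labelled one, and Rxra had a row off the column relations too. The lowest PBS-labelled value, 30.6 FPKM in KO PBS 2, belongs to the profile that also stands under KO MPTP 1. The share of all genes tested with such an order was not computed. Rxrb, its paralog, was between 24.8 and 29.3 FPKM and passed in no comparison. For MPTP in WT, 1 of these 8 genes was called, against 0.254% of all genes tested, and in the other 5 comparisons 0 were.

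Cofactors of the network did not pass the test in any comparison. This held for 6 of 6 partners of GABP and YY1, such as Hcfc1 (15.8 to 18.0 FPKM), the host cell factor that binds GABP, and Sp1 (15.3 to 17.6 FPKM). It held for 15 of 15 coregulators that act with PGC-1, such as Mybbp1a (65.0 to 72.7 FPKM), a repressor of PGC-1α, and the methyltransferase gene Prmt1 (56.4 to 66.7 FPKM). It also held for 18 of 18 tested genes of signals upstream of PGC-1α, such as the kinase gene Akt1 (91.7 to 104 FPKM) and Nampt (64.4 to 72.8 FPKM), which encodes an NAD-producing enzyme on which SIRT1 activity depends. At an unadjusted p under 0.05 in limma, 1 of the 6 GABP and YY1 partners passed for MPTP in KO, and 0 passed in every other combination of these 3 lists and 6 comparisons.

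Among 14 tested targets of NRF1 and GABP, 1 was called in each of 4 comparisons, against 0.254% of all genes for MPTP in WT, 0.292% for MPTP in KO, 0.226% for KO against WT under PBS and 0.103% under MPTP. Of the 14 targets, 9 (64.3%) lay above 0 for MPTP in WT against 73.0% of all genes, 12 (85.7%) for MPTP in KO against 86.5%, 1 (7.14%) for KO against WT under PBS against 22.1%, 2 (14.3%) under MPTP against 45.7%, and 1 (7.14%) over 6 profiles against 30.5%. Tfam, which encodes the mitochondrial transcription factor A, fell for MPTP in WT by 0.70 (SE 0.09, limma adjusted p = 0.0101) and for KO against WT under PBS by 0.59 (SE 0.09, adjusted p = 0.0286). Its levels were 16.7 and 17.7 FPKM in WT PBS, 10.2 in WT MPTP 1, 11.0 and 11.8 in the KO PBS pair, and 8.58 in KO MPTP 2. The WT PBS pair was thus above all other profiles. Cox6c, a subunit gene of cytochrome c oxidase, fell for MPTP in KO by 0.87 (SE 0.10, limma adjusted p = 0.0052) and for KO against WT under MPTP by 0.98 (SE 0.10, adjusted p = 0.00299). It was at 252 and 271 FPKM in WT PBS, 206 in WT MPTP 1, 191 and 138 in the KO PBS pair, and 104 in KO MPTP 2. Both genes had a row off the column relations. Their partner in the list with the highest level, Atp5b, was not called and had no row off the relations. Atp5b was at 720 and 648 FPKM in WT PBS, 556 in WT MPTP 1, 496 and 527 in the KO PBS pair, and 542 in KO MPTP 2. Its WT PBS pair was thus also above all other profiles. How many of all genes tested share this order was not computed, so nothing is read from it.

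Among 12 tested targets of PPARs and ERRs, 1 was called for MPTP in WT, against 0.254% of all genes, and 2 for KO against WT under PBS, against 0.226%. Ucp2, which encodes an uncoupling protein of the inner mitochondrial membrane, fell for MPTP in WT by 0.75 (SE 0.08, limma adjusted p = 0.00472) and for KO against WT under PBS by 0.85 (SE 0.08, adjusted p = 0.00159). Its levels were 238 and 249 FPKM in WT PBS, 145 in WT MPTP 1, 134 and 131 in the KO PBS pair, and 114 in KO MPTP 2, and it had a row off the relations. Acadm, the medium-chain acyl-CoA dehydrogenase gene of fatty acid oxidation, fell for KO against WT under PBS by 0.49 (SE 0.08, adjusted p = 0.0375) and had no row off them. Acadm was at 71.0 and 71.9 FPKM in WT PBS, 53.9 in WT MPTP 1, 50.8 and 48.0 in the KO PBS pair, and 52.3 in KO MPTP 2. The WT PBS profiles were again above all others, which lay close together. As above, the share of all genes tested with this order was not computed. For KO against WT, 2 of the list's 12 genes (16.7%) lay above 0 under PBS against 22.1% of all genes, 1 (8.33%) under MPTP against 45.7%, and 1 (8.33%) over 6 profiles against 30.5%. The list's medians were -0.10, -0.06 and -0.07 in these comparisons, against -0.06, -0.01 and -0.03 for all genes.

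The genes whose pattern was most like that of Ppargc1a, the member of largest span, were sought among 214 tested genes that spanned at least 0.5 on the log2 scale. By Pearson correlation over the 6 profiles, which share 2 genotypes and few replicates, the nearest were Apoc1 (r = 0.979), Dnaja1 (r = 0.968), Itgam (r = 0.960), Cebpb (r = 0.944) and Hspd1 (r = 0.936). Apoc1, an apolipoprotein gene, was at 6.34 and 6.88 FPKM in WT PBS, 3.78 in WT MPTP 1, 2.71 and 2.32 in the KO PBS pair, and 2.74 in KO MPTP 2, and had no row off the relations. Cebpb, a transcription factor gene of macrophages, was at 170 and 153 FPKM in WT PBS, 75.1 in WT MPTP 1 and between 55.9 and 58.6 in KO. Dnaja1, Itgam, Cebpb and Hspd1 each had a row off the relations. With 6 profiles such correlations only describe the order of these profiles.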

How the data were processed

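RNA-seq of sorted midbrain microglia was analysed from 1 deposited table of 67355 rows and 12 columns. The submitters' processing notes name CASAVA 1.5, Bowtie 0.12.7, TopHat, Cufflinks and mm9. The authors' deposited values were taken as FPKM, because Cufflinks writes that unit and no header states one. Annotation and filters are absent from the sources used here. Column totals ran from 388861 to 434022 FPKM, and no counting interval could be set because depth is unknown. 1 row with text in a cell was left out. Rows were summed per symbol. The symbols of all 10 members matched the reference.

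Column relations were checked within rounding (0.0101 FPKM for multiples, 0.00995 FPKM for means). limma 3.58.1 in R 4.3.3, with its trend option and log2(FPKM + 1) values, was fitted to the 10634 genes that reached 1 FPKM in 3 or more of the 6 profiles, with Benjamini-Hochberg adjustment over all of them and a threshold of 0.05. The pseudocount of 1 understates changes of low genes. The fit of 5 profiles (WT PBS 1 and 2, WT MPTP 1, KO PBS 1, KO MPTP 2) had 1 residual and 9.01 prior degrees of freedom, so single profiles are assumed to vary like the WT PBS pair. The genotype fit over 6 profiles had 4 and 13.74. In simulated data of the same design both fits recovered large changes with the right sign, and the fit of 5 profiles made more false calls than its threshold allows. Exact permutation tests were two-sided.

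The members and gene lists were chosen with earlier results of these data known. A member's difference is named where it is called or has an unadjusted p under 0.05, and the others are given by range. Called list genes are named, up to 4 per list and comparison, or else the 2 of highest level, and the 5 genes nearest to the member of largest span. Ppara, Rxrg and Thrb had no matched symbol and were not analysed here. Alternatives were other pseudocounts, filters, scalings, single rows, other uses of the profile under 2 labels, all 12 columns, a replicate block and each profile left out.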

Additional observations from a re-analysis of the deposited data

How the results depend on the processing

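No named value reversed its direction under any alternative that was run. For single members, 146 values kept their side of the threshold, 23 newly passed and 20 no longer passed. The number of members called moved by over 1.5 times as follows. For MPTP in WT (2 called), it was 0 with no filter, with single rows and when the 42 off-relation genes were dropped, and 1 with a 5 FPKM filter (which Ppargc1a does not pass), quantile normalization or the doubly labelled profile counted as KO MPTP at its KO PBS 2 values. For MPTP in KO (0 called), it was 1 with the 5 FPKM filter, median scaling, 12 columns, that profile counted as KO PBS, or counted as KO MPTP at its KO MPTP 1 values. For KO against WT under PBS (1 called), it was 0 with no filter or without the off-relation genes and 2 with 12 columns. For KO against WT under MPTP (1 called), it was 0 with no filter, the 5 FPKM filter, single rows or without the off-relation genes, and 2 with 12 columns. For the interaction (0 called), it was 1 with 12 columns. Over 6 profiles (1 called), it was 0 with no filter, median or quantile scaling or without the off-relation genes, and 2 with 12 columns or with treatment as a covariate and the doubly labelled profile as KO PBS. With the 5 FPKM filter the count did not change here or for KO against WT under PBS, but the called member did. It was then Nrf1 in both, since Ppargc1a does not pass that filter. The Ppargc1a difference was -4.00 FPKM over 12 columns (permutation p = 0.00216), a test that counts computed columns as replicates. Beyond the genes and columns an alternative drops or adds, the cause was not tested.

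Leaving out 1 profile at a time, with KO PBS 2 added as KO PBS so that 2 choices changed together, gave 0 to 2 members called for MPTP in WT, 0 for MPTP in KO, 1 for KO against WT under PBS, 0 to 1 under MPTP and 0 to 1 for the interaction. Over 6 profiles, where only the omission changed, it gave 1 to 2. The Ppargc1a difference then ranged from -5.67 to -3.92 FPKM. Over all genes, the alternatives called between 0 and 3841 for MPTP in WT (27 in the fit reported), 0 and 3303 for MPTP in KO (31), 0 and 3025 for KO against WT under PBS (24), 0 and 3138 under MPTP (11), 0 and 1043 for the interaction (8), and 0 and 1023 over 6 profiles (4). With no filter, the fit of 5 profiles had 0.715 prior degrees of freedom and limma called 0 genes in each of its comparisons, with 1889 to 2891 at an unadjusted p under 0.05.

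A shared replicate number is only a number here. The WT PBS and KO PBS profiles of the same number deviated together (r = 0.227 across 10634 genes), but there are only 2 pairs and the labels name no shared source. With the replicate block over 6 profiles, 1 member was called for MPTP in WT, 1 for MPTP in KO, 0 for KO against WT under MPTP and 2 for KO against WT over both treatments, where Nrf1 was at -0.43 (limma adjusted p = 4.94e-05). With the replicate block over 12 columns, 6 members were called for MPTP in WT, 2 for MPTP in KO, 3 for KO against WT under PBS, 2 under MPTP and 1 for the interaction.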

Other observations

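Some departures of the members' rows took round values once divided by the factor of their column's relation, 1.02 for the multiples and 0.99 for the means. In KO MPTP 1 the departure of Ppard_5 was -10.0 FPKM and that of Nrf1_4 -2.001 FPKM on this scale, where rounding of the deposited values allows 0.0099 FPKM. In WT PBS 3 the departure of Ppargc1a_1 was -0.5 FPKM. For the remaining rows, Ppargc1a_1 was at 0.096 FPKM and Pparg_4 at -0.12 FPKM in KO MPTP 1, and in WT MPTP 2 the values were 0.055 FPKM for Ppargc1a_1, -0.058 FPKM for Nrf1_4 and 0.192 FPKM for Nrf1_15. They were computed once the departures were known, and none was tested.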
